A study of Mus musculus with 14 samples.

Results

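The circadian clock genes examined here were Arntl, Clock, Per1, Per2, Per3, Cry1, Cry2, Nr1d1, Nr1d2 and Dbp, 10 of the 46095 gene symbols of the count table, taken by symbol. All 10 had enough reads to be tested, among 17693 genes that passed the low-count filter. They were read in RNA of the superior mesenteric artery (SMA), the vessel that supplies much of the gut, from 14 C57BL/6 mice, each 8 weeks old. Under normal conditions there were 3 Drp1 +/+ (WT) and 4 Drp1 flox/+ mice, and a further 3 WT and 4 flox/+ mice had undergone ischemia, which makes 4 groups. The study calls the flox/+ mice Drp1 KO and describes a heterozygous allele with a CRISPR frameshift. Whether a flox allele was deleted is not stated, and KO is used here as the study's name for the group. Ischemia in the study's methods meant blood withdrawal through the femoral artery under pentobarbital anesthesia. Sample names of the ischemic mice carry 2 h, the study's text a longer period. The clock time of sampling and the light schedule are not given in the sources used here, so sampling time cannot be told apart from the groups.

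Depth was 25612646 to 40255851 counts per mouse. The targeted gene, Dnm1l (Drp1), was at 54.8 to 62.2 CPM (read counts scaled to a common library total) in normal KO mice and 63.8 to 90.9 CPM in normal WT mice, and after ischemia the genotypes overlapped (60.0 to 75.9 CPM in KO, 63.1 to 81.0 CPM in WT). edgeR gave a log2 difference of −0.32 (SE 0.16, adjusted p = 0.974) under normal conditions, so whole-gene counts did not separate the genotypes by test. The study reports fewer reads at the targeted exon and less Drp1 protein in KO mice, which are other measures than these counts. All 6 smooth muscle markers were present in every mouse, summing to 7002 to 36190 CPM. They were far from equal: Tagln was at only 0.674 to 5.78 CPM, while Acta2 was at 3355 to 18590 CPM. The reason for the low Tagln counts was not tested. Markers of brown adipocytes (4 genes, among them Ucp1) summed to 150 to 6501 CPM and differed widely within groups. Red cell markers (3 genes) summed to 283 to 481 CPM in normal KO mice and 3.98 to 194 CPM in all others. Normal WT mouse 2 had the highest brown adipocyte sum (6501 CPM) and the lowest smooth muscle sum (7002 CPM) of all 14 mice. Normal KO mouse 4 was next in both (6044 and 10270 CPM), and normal WT mouse 1 had the lowest brown adipocyte sum (150 CPM). Results that rest on normal WT mouse 2 are given with and without it, and each other mouse was also left out in turn. The library of normal WT mouse 3 carries another lane number than the other 13. In bulk tissue, fewer cells of a type and less RNA per cell cannot be told apart.

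The molecular clock is a feedback loop that runs in nearly every cell, including vascular smooth muscle and endothelium. BMAL1 (gene Arntl) and CLOCK bind E-boxes and switch on the Per and Cry genes, the nuclear receptors Nr1d1 and Nr1d2 (REV-ERB alpha and beta) and the output factor Dbp. PER and CRY proteins then inhibit BMAL1 and CLOCK, and the REV-ERBs repress Arntl through elements they share with the ROR receptors. In most tissues Arntl RNA therefore peaks at about the opposite time of day from Dbp, Per3 and Nr1d1 RNA, while DBP acts on D-boxes and Per1 also responds quickly to stress hormones and other acute signals.

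These inputs can be read in the promoters. For 9 of the 10 members, all but Per2, RefSeq windows on GRCm38.p6 were at hand, 13 windows in all, each running from 250 bases before to 50 after a transcription start. Motifs were searched on both strands: the E-box CACGTG, its variant CACGTT, the D-box TTATGTAA, the core TAGGTCA of the ROR and REV-ERB element, and the cyclic AMP element TGACGTCA. The windows of 4 members are shown because each carries an E-box, a D-box or a ROR and REV-ERB core, with the motifs in capitals. All are written 5′ to 3′ in the direction of transcription. They lie at chr7:113207261-113207560 (plus strand) for Arntl, chr4:151044616-151044915 (minus strand) for Per3, chr10:85185005-85185304 (minus strand) for Cry1 and chr11:69098699-69098998 (plus strand) for Per1.
Arntl: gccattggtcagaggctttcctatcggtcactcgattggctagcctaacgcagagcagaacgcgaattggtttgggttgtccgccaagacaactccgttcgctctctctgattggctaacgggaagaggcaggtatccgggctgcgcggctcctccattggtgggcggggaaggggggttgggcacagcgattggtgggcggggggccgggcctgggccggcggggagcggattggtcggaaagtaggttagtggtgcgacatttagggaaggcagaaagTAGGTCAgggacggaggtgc
Per3: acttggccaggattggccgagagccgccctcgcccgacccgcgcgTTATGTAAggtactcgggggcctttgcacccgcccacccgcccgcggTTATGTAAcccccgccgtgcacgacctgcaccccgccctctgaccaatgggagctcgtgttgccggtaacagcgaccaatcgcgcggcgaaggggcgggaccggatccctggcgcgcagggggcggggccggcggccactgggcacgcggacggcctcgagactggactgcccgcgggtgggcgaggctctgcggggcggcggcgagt
Cry1: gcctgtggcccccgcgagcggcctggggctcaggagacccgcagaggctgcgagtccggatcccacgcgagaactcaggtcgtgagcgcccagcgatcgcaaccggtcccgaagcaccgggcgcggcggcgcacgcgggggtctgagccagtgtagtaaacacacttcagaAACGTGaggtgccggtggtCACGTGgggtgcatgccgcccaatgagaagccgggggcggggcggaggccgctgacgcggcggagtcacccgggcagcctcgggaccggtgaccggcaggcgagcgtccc
Per1: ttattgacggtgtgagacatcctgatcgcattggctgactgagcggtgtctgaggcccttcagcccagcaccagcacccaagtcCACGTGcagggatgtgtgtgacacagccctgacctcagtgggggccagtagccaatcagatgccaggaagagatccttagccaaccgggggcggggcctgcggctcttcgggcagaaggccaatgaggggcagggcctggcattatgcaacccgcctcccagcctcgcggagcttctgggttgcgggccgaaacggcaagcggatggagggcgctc
The Arntl window holds the ROR and REV-ERB core 31 bases after the start, and 2.61% of all 32851 windows hold one. Per3 has 2 D-boxes on the coding strand, 205 and 158 bases upstream, a motif found in 0.938% of windows. The E-box stood in the Cry1 and Per1 windows (7.15% of all windows) and the variant in those of Cry1, Cry2 and Nr1d1 (4.68%). In all of the latter the variant lies on the other strand and is written AACGTG. No member window held the cyclic AMP element (1.79%), and the Dbp window held none of the 5 motifs. A match is only a description of these letters.

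Per length of exon, Nr1d1 was the most abundant member and Per3 or Arntl the least. Mean levels in normal WT mice were 81.4 CPM per kb for Nr1d1, 31.0 for Per1 and 23.8 for Dbp, against 4.13 for Arntl, 2.92 for Cry1 and 1.01 for Per3. In normal KO mice Dbp stood first with 76.0 CPM per kb and Arntl last with 0.338. The members also differed widely in their spread. Across the 14 mice the standard deviation of log2 CPM of Dbp exceeded that of 99.3% of tested genes, that of Arntl 98.9% and that of Per3 96.0%, whereas Cry2 exceeded 5.14% and the other 6 members lay between 41.3% and 62.5%. Highest over lowest mouse was 141-fold for Dbp, 79.0-fold for Arntl, 38.4-fold for Per3 and 1.53-fold for Cry2.

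Arntl, the partner of Clock in the activating complex (ENSMUSG00000055116, chr7:113207465-113314126 on GRCm38), had 60.6, 1.77 and 30.7 CPM in normal WT mice 1 to 3. In normal KO mice it had 3.36, 1.71, 0.768 and 4.32 CPM. WT mouse 2 thus lay among the normal KO mice, and WT mice 1 and 3 lay far above all of them. After ischemia Arntl had 49.1, 37.0 and 40.8 CPM in WT mice and 21.5, 30.8, 10.3 and 36.0 CPM in KO mice, the WT mice all above the KO mice. Group means were 42.3 ± 6.18 (SD, n = 3) in ischemic WT, 31.0 ± 29.4 (n = 3) in normal WT, 24.7 ± 11.3 (n = 4) in ischemic KO and 2.54 ± 1.60 CPM (n = 4) in normal KO mice. Only the last group was apart from its neighbor in this order. Clock, which encodes the other subunit of the complex, followed with smaller steps: 91.1, 38.8 and 94.5 CPM in normal WT, 42.9, 35.1, 32.1 and 35.5 in normal KO, 125, 72.2 and 98.4 in ischemic WT and 73.1, 77.4, 62.0 and 62.6 CPM in ischemic KO mice. WT mouse 2 was again inside the range of the normal KO mice.

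Dbp, a D-box activator and one of the most rhythmic clock outputs, was the reverse. It had 1.92, 194 and 17.9 CPM in normal WT mice 1 to 3, 257, 264, 271 and 118 CPM in normal KO mice, 9.64, 9.08 and 18.4 CPM in ischemic WT mice and 62.8, 30.4, 85.4 and 10.4 CPM in ischemic KO mice. All 4 normal KO mice and WT mouse 2 were above every ischemic mouse. Exons of Dbp share 539 bases (18.0%) with Sphk2 on the other strand, and strand use in counting is not stated, so a part of these reads could belong to Sphk2. Per3, a Period gene whose RNA is strongly rhythmic, had 4.34, 22.0 and 2.64 CPM in normal WT, 28.0, 26.2, 25.4 and 13.3 CPM in normal KO, 2.37, 1.496 and 2.38 CPM in ischemic WT and 3.39, 2.33, 4.85 and 0.729 CPM in ischemic KO mice. Every ischemic KO mouse was below every normal KO mouse, and the ischemic WT mice were below the normal WT mice by a small margin from mouse 3.

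Per1 and Per2 are the Period genes that acute signals can induce. Per1 had 220, 218 and 85.4 CPM in normal WT, 304, 154, 193 and 99.9 CPM in normal KO, 310, 289 and 330 CPM in ischemic WT and 322, 307, 238 and 208 CPM in ischemic KO mice. The ischemic WT mice were all above the normal WT mice, while the KO groups overlapped through normal KO mouse 1. Per2 had 67.8, 108 and 42.8 CPM in normal WT, 260, 131, 194 and 148 CPM in normal KO, 96.9, 74.7 and 68.5 CPM in ischemic WT and 127, 81.0, 88.9 and 34.6 CPM in ischemic KO mice. The normal KO mice were above all others for Per2, and the 3 other groups overlapped.

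Among the Cry repressors and the REV-ERB genes, Cry2 varied least. Cry1 ranged from 11.5 to 20.5 CPM in normal KO and from 6.30 to 9.21 CPM in ischemic KO mice, which did not overlap, and from 8.05 to 11.5 CPM in normal WT and 5.07 to 12.2 CPM in ischemic WT mice, which did. Cry2 stayed between 39.6 and 60.7 CPM in all 14 mice. Nr1d1 had 213, 230 and 308 CPM in normal WT, 215, 232, 223 and 118 CPM in normal KO, 457, 223 and 323 CPM in ischemic WT and 400, 288, 288 and 204 CPM in ischemic KO mice, all groups overlapping. Nr1d2 had 51.7, 130 and 77.1 CPM in normal WT mice, of which mouse 2 was highest, 115 to 193 CPM in normal KO, 71.7 to 73.2 CPM in ischemic WT and 62.2 to 133 CPM in ischemic KO mice. Nr1d1 shares 263 exon bases (8.55%) with Thra on the other strand.

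**Figure D1:**
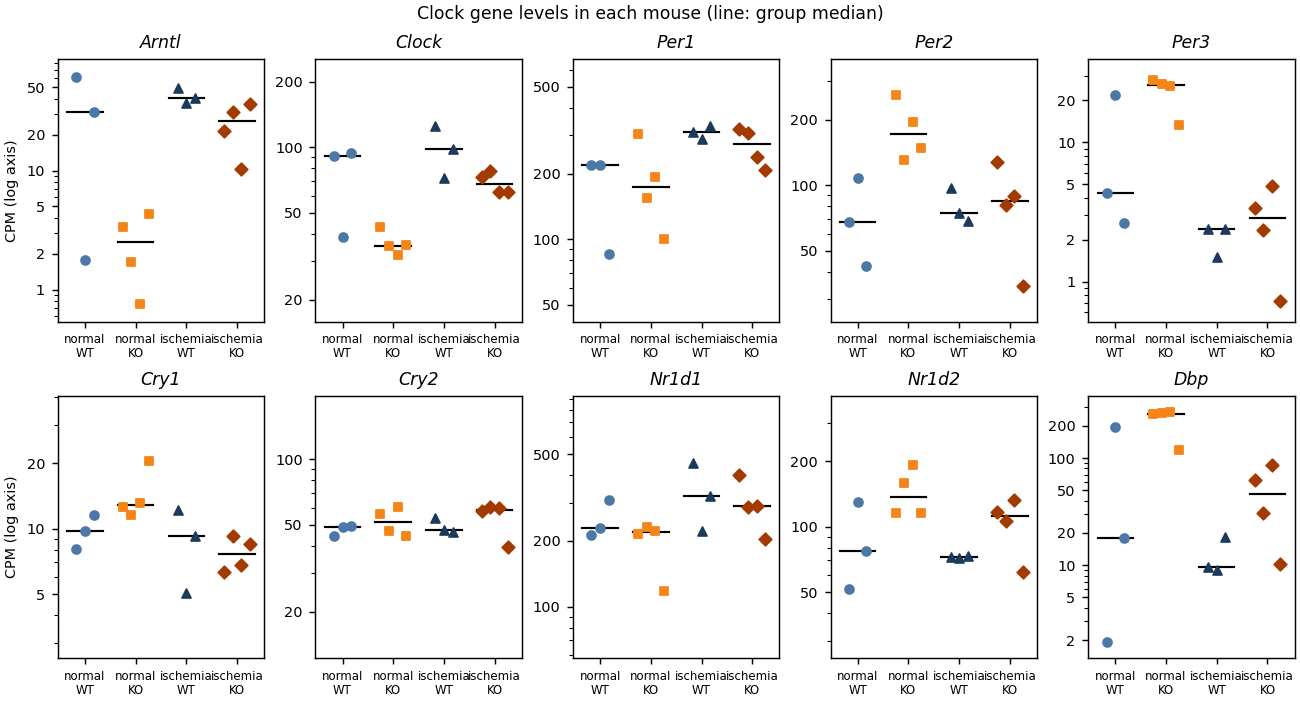
Level of each of the 10 clock genes in each mouse (vertical log axis, CPM) in the 4 groups; each point is a mouse in replicate order and each line a group median. For Arntl, Clock, Dbp and Per3 normal WT mouse 2, the middle circle, sits at the level of the normal KO mice, while Cry2 hardly varies.

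The ratio of Dbp to Arntl counts put these opposite levels into a single value per mouse that does not depend on library scaling. It was 0.0316, 109 and 0.581 in normal WT mice 1 to 3, from below every ischemic mouse to within the range of the normal KO mice. In normal KO mice it was 76.7, 154, 352 and 27.2, in ischemic WT mice 0.196, 0.246 and 0.452, and in ischemic KO mice 2.92, 0.987, 8.30 and 0.288. All 4 normal KO mice and 1 of 3 normal WT mice were above every ischemic mouse. WT mouse 1 was the lowest of all 14, so normal WT mice stood near both ends of the range.

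**Figure D2:**
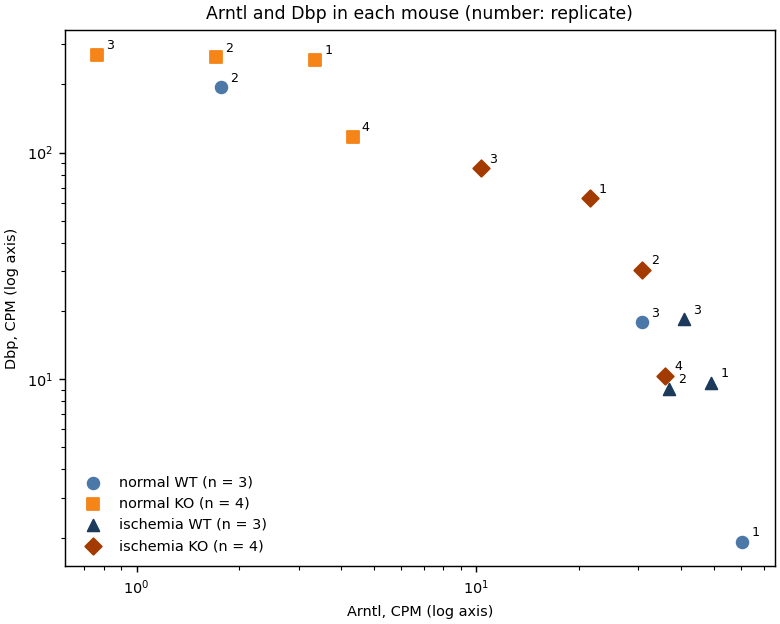
Arntl (horizontal) against Dbp (vertical) in each of the 14 mice, both in CPM on log axes; symbols give the group and numbers the replicate. Normal KO mice and normal WT mouse 2 lie at the upper left, with Arntl at most 4.32 CPM and Dbp at least 118 CPM, and normal WT mouse 1 at the lower right with 60.6 and 1.92 CPM.

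Other tissue in the sample varied too. Brown adipocyte markers summed to 150, 6501 and 1609 CPM in normal WT mice 1 to 3, in the same order as the Dbp to Arntl ratio. Across groups the order was not kept: normal KO mouse 1 had a ratio of 76.7 at 1079 CPM of the markers, and ischemic KO mouse 4 a ratio of 0.288 at 4244 CPM. With these markers as a covariate in edgeR, Per3 was called in the mean of both genotypes (log2 −2.43, adjusted p = 0.0214, where 2.41% of all genes were called). No other marker list served as a covariate. The part of other tissue in the clock gene levels was not tested.

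**Figure D3:**
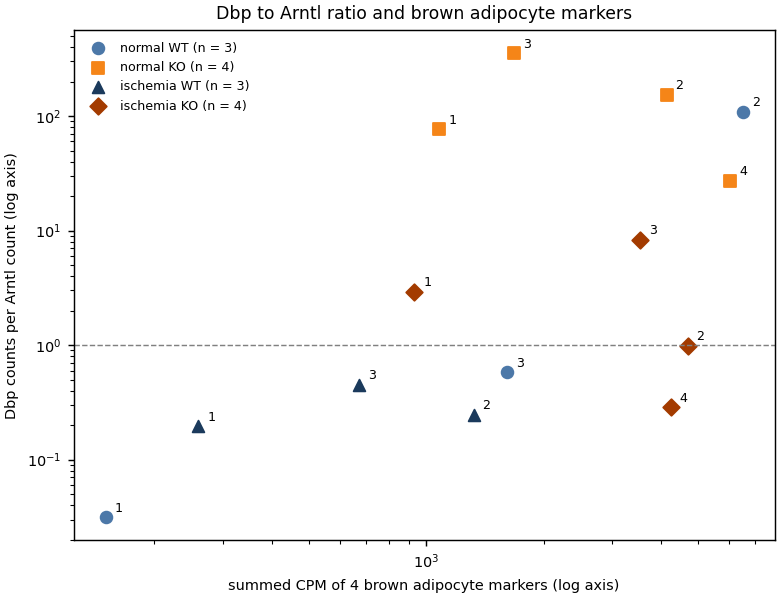
Summed CPM of 4 brown adipocyte markers (horizontal log axis) against Dbp counts per Arntl count (vertical log axis) in each mouse; the dashed line marks equal counts and numbers give the replicate. Normal KO and ischemic KO mice cover similar marker sums (1079 to 6044 and 930 to 4689 CPM) at ratios of 27.2 to 352 and 0.288 to 8.30.

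Whether mice of the same group differed along this axis was tested for 8 pairs of members, on log2 CPM after removal of group means, with 20736 reorderings within groups and two-sided permutation p-values adjusted over the 8 pairs. Arntl and Dbp were opposed (Pearson r = −0.871, p = 0.00477, adjusted 0.0332, Spearman rho = −0.758, p = 0.0042, adjusted 0.0168, 14 mice). Without normal WT mice 1 and 2, the 2 farthest from the median of Arntl, r was −0.649 (permutation p = 0.042, unadjusted). No p-value without 2 mice was adjusted over the 8 pairs. Arntl and Per3 had r = −0.770 (p = 0.0224, adjusted 0.0448, rho = −0.719, p = 0.0255) and Arntl and Clock r = 0.811 (p = 0.0154, adjusted 0.041, rho = 0.767, p = 0.0151). Without the same 2 mice these became −0.583 (permutation p = 0.0917) and 0.421 (permutation p = 0.0935), so both rest on those mice. Dbp and Per3 had r = 0.796 (p = 0.0383, adjusted 0.0613, rho = 0.851, p = 0.00376), and 0.958 (p = 0.00289) without the 2 mice. Per1 and Per2 went together (r = 0.703, p = 0.00829, adjusted 0.0332, rho = 0.749, p = 0.014), also without normal WT mouse 3 and normal KO mouse 4 (r = 0.715, p = 0.0272). No relation was found by this test between Arntl and Nr1d1 (r = −0.157, p = 0.533, rho = −0.178, p = 0.56), Nr1d1 and Nr1d2 (r = 0.423, p = 0.119, rho = 0.349, p = 0.234) or Cry1 and Cry2 (r = −0.0715, p = 0.822, rho = 0.0901, p = 0.787). Within the 13 libraries of the common lane, the r of Arntl and Dbp was −0.903 (permutation p = 0.021), of Arntl and Per3 −0.754 (p = 0.0459), of Arntl and Clock 0.797 (p = 0.0467), of Dbp and Per3 0.898 (p = 0.00145) and of Per1 and Per2 0.615 (p = 0.0247), all unadjusted. The other lane holds 1 mouse.

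Ischemia against normal conditions was also taken as the mean of both genotypes. The ischemic mice also underwent anesthesia and catheterization, and no sham group is among the groups. The parts of blood loss, of these procedures and of sampling time cannot be told apart. Per3 fell by 2.62 on the log2 scale (SE 0.50, edgeR adjusted p = 0.0271), and it was the only member called, at an adjusted p under 0.05 and a fold change over 1.5, where 0.927% of all genes were called. Its exact permutation p, over 1400 splits within genotypes, was 0.00143, the smallest this design allows. The adjusted p of Per3 ranged from 4.71e-06 to 0.0376 over 9 other settings, and without single mice from 0.0172 to 0.0852. The call was lost without normal KO mouse 2 (0.0648) or 3 (0.0575), without ischemic WT mouse 1 (0.0527), 2 (0.0725) or 3 (0.0852), and without ischemic KO mouse 1 (0.0522) or 2 (0.0679). Arntl differed by 1.86 (SE 0.57, adjusted p = 0.131), Clock by 0.66 (SE 0.19, adjusted p = 0.12) and Dbp by −2.40 (SE 0.74, adjusted p = 0.134) on the log2 scale. At an unadjusted p under 0.05 stood 7 of the 10 members, with Per1 (0.67), Nr1d1 (0.50), Arntl and Clock higher and Cry1 (−0.52), Dbp and Per3 lower. The background was 18.1% of all genes, 8.35% higher and 9.72% lower. By exact permutation Dbp had p = 0.126 (difference of mean log2 CPM −1.63), and the others of these 7 had p of at most 0.0471. Without normal WT mouse 2 the differences were −1.89 for Per3 (adjusted p = 0.0425), 1.59 for Arntl (0.105) and −0.97 for Dbp (0.443). DESeq2 called 4 members (Arntl, Clock, Per3 and Dbp) where it called 5.39% of all genes, and limma-trend called Per3 (background 1.09%).

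In KO mice alone, 6 members did not overlap between ischemic and normal mice, Arntl and Clock higher and Per2, Per3, Cry1 and Dbp lower after ischemia. Of all genes 11.1% did not overlap, 5.49% higher and 5.60% lower. Each had an exact permutation p of 0.0286, the smallest that 4 against 4 mice allow. In edgeR none was called, at a background of 0.294%, while 6 had an unadjusted p under 0.05 (background 13.2%). Arntl differed by 3.28 (SE 0.79, adjusted p = 0.103), Per3 by −3.04 (SE 0.65, adjusted p = 0.0775) and Clock by 0.92 (SE 0.25, adjusted p = 0.149). For Dbp the difference was −2.27 (SE 0.96, adjusted p = 0.325), for Per2 −1.15 (SE 0.37, adjusted p = 0.209) and for Cry1 −0.90 (SE 0.28, adjusted p = 0.195). DESeq2 called 4 of them (background 3.77%), Arntl (adjusted p = 0.000613), Per3 (0.00018), Clock (0.0262) and Cry1 (0.0481), and limma-trend called 1, Per3 (background 0.401%). edgeR on the 2 KO groups alone called Arntl, Clock and Per3 at a background of 1.67%, as did the fit of all groups without normal WT mouse 2 at 0.938%. With brown adipocyte markers as covariate edgeR called 3 (Arntl, Clock and Per3, background 1.64%), and without a low-count filter 1 (Per3, background 0.263%). edgeR called no marker of another cell type or of smooth muscle in this comparison, but at an unadjusted p under 0.05 all 3 red cell markers (median log2 difference −1.89), 2 of 4 fibroblast markers (median −1.29), 2 of 3 macrophage markers (median −0.91) and 1 of 3 lymphocyte markers tested (median −2.52) were lower. Fibroblast markers summed to 887 to 6283 CPM in normal and 1391 to 1901 CPM in ischemic KO mice, macrophage markers to 58.4 to 184 and 44.1 to 90.6 CPM. Smooth muscle markers summed to 10270 to 24320 CPM in normal and 18450 to 29940 CPM in ischemic KO mice, and red cell markers to 62.5 to 151 CPM in the latter. Their part in these differences was not tested.

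In WT mice, edgeR called no member after ischemia (background 0.0113%), and DESeq2 and limma-trend called none. At an unadjusted p under 0.05 were 2, Per3 (−2.21, SE 0.74, adjusted p = 0.513) and Dbp (−2.52, SE 1.12, adjusted p = 0.517), at a background of 9.57%. Per1 (higher, 0.83, SE 0.39, adjusted p = 0.526) and Per3 (lower) did not overlap between the groups, as was the case for 11.0% of genes. Their exact p of 0.1 is the smallest that 3 against 3 mice allow. The differences of Dbp, Per3 and Arntl (0.44) turn on normal WT mouse 2: without it they were 0.31, −0.77 and −0.13, while that of Per1 was 0.99.

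For the effect of KO without ischemia, edgeR called 0 of 10 members and 0 of all genes. An unadjusted edgeR p under 0.05 was found for 4 members, against 5.25% of genes. These were Arntl (−3.62, SE 0.83, adjusted p = 0.867), Clock (−1.04, SE 0.27, adjusted p = 0.867), Per2 (1.33, SE 0.41, adjusted p = 0.867) and Nr1d2 (0.75, SE 0.32, adjusted p = 0.933). Only Per2 did not overlap (exact p = 0.0286, the smallest for 3 against 4 mice, background 4.50%). DESeq2 called Arntl (adjusted p = 0.0021, background 0.321%) and limma-trend none. Dbp differed by 1.67 (SE 1.04) in edgeR, where the counts of WT mouse 2 carry the WT level, and by 3.50 between means of log2 CPM (exact p = 0.0571). Without WT mouse 2, edgeR called Arntl (−4.18, adjusted p = 0.0169) and Clock (−1.36, adjusted p = 0.0207) at a background of 0.156%. It gave 4.53 for Dbp (adjusted p = 0.109) and 2.72 for Per3 (adjusted p = 0.12). That fit leaves only WT mice 1 and 3 in the normal WT group.

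After ischemia no member differed between genotypes at an unadjusted p under 0.05 (background 6.48%), and edgeR, DESeq2 and limma-trend called none. Dbp was 1.93 higher (SE 1.06, adjusted p = 0.715) and Arntl 0.78 lower (SE 0.77, adjusted p = 0.802) in KO mice. Arntl did not overlap (exact p = 0.114, background 10.7%). Brown adipocyte markers summed to 259 to 1322 CPM in ischemic WT and 930 to 4689 CPM in ischemic KO mice. All 4 were higher in KO mice (median log2 difference 2.07), 2 of them at an unadjusted edgeR p under 0.05. With these markers as covariate the Arntl difference was 0.039. Their part in the clock gene differences was not tested. The interaction, the difference between the ischemic effects of the genotypes, gave no call by edgeR, DESeq2 or limma-trend, and an unadjusted edgeR p under 0.05 for Arntl (2.84, SE 1.13, adjusted p = 0.946) and Per2 (−1.28, SE 0.56, adjusted p = 0.946), at a background of 4.32%. For Dbp it was 0.26 (SE 1.401) and −2.56 without normal WT mouse 2. Any difference among the 4 groups gave 0 member calls in edgeR (background 0.130%) and in limma-trend and 5 in DESeq2 (Arntl, Clock, Per2, Per3 and Dbp, background 5.78%). An unadjusted edgeR p under 0.05 was found for 7 members (background 12.5%), Per3 with the smallest (adjusted p = 0.0954). Without a low-count filter edgeR called 1, Per3 (background 0.224%).

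**Figure D4:**
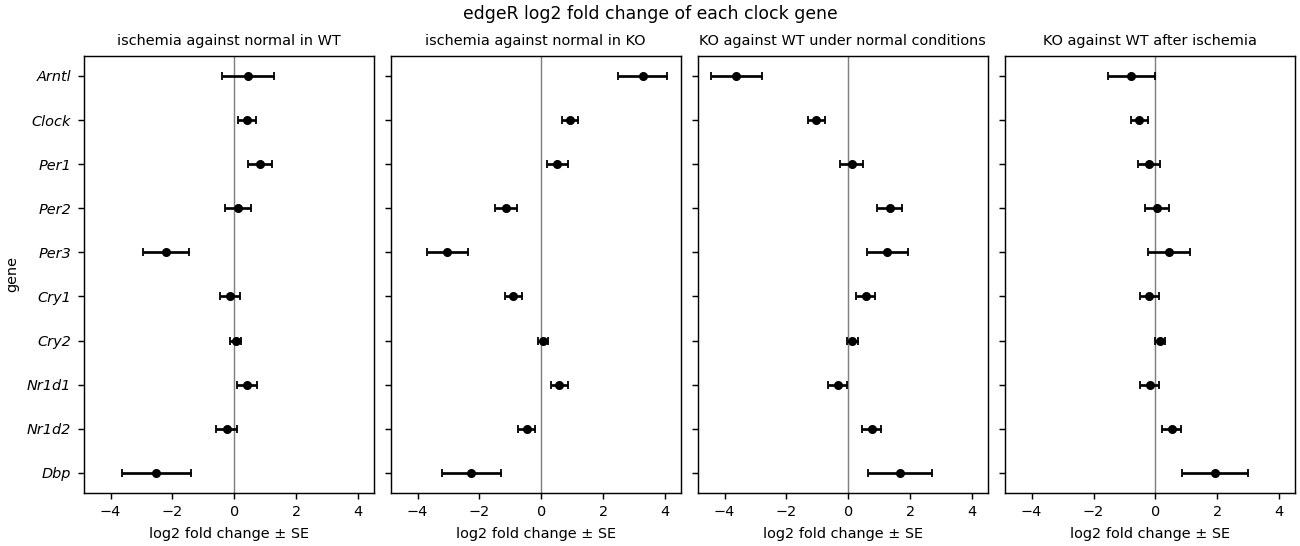
edgeR log2 fold change (horizontal axis) of each of the 10 clock genes (vertical axis) in 4 comparisons, points with bars of 1 SE. For ischemia in KO mice, Arntl and Clock lie right of 0 and Per3, Dbp, Per2 and Cry1 left of it, none of them called by edgeR; the effect of KO under normal conditions is set against the same normal KO mice, so these 2 panels share samples.

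A wider list of 20 clock genes was read alongside, 19 of them tested. edgeR called 1, Nfil3, in the mean of both genotypes and in KO mice (backgrounds of 0.927% and 0.294% of all genes), and 0 in the other comparisons. In the mean of both genotypes 3 were higher and 7 lower at an unadjusted p under 0.05 (background 18.1%) and the median log2 difference was −0.07, against −0.05 for all genes. In KO mice 3 were higher and 5 lower (background 13.2%), and between KO and WT under normal conditions 5 were higher and 2 lower (5.25%). DESeq2 called 6 after ischemia in KO mice (background 3.77%) and 2 between genotypes under normal conditions (0.321%), and limma-trend called Nfil3 only. Over 9 other settings, calls in the mean of both genotypes ran from 1 to 6, where 153 to 876 of all genes were called. In the test of 4 groups they ran from 0 to 7, where 14 to 900 of all genes were called. With single mice left out, they ran from 0 to 3 (60 to 361 of all genes) and from 0 to 7 (2 to 208). The 6 with the smallest p in the test of 4 groups were Nfil3, Wee1, Npas2, Hlf, Tef and Bhlhe41.

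Nfil3 (E4BP4), which represses at the D-boxes where DBP activates, rose after ischemia. It had 64.3, 23.7 and 25.7 CPM in normal WT, 9.33, 11.7, 9.21 and 26.9 CPM in normal KO, 52.5, 158 and 65.1 CPM in ischemic WT and 58.8, 129, 122 and 163 CPM in ischemic KO mice. The rise was 2.16 on the log2 scale (SE 0.38, edgeR adjusted p = 0.019) over both genotypes and 3.05 (SE 0.51, adjusted p = 0.0246) in KO mice, where the groups did not overlap. The call in KO mice was lost when normal KO mouse 1, 2 or 3 or ischemic KO mouse 2, 3 or 4 was left out. The call over both genotypes was lost without normal KO mouse 2. The RefSeq window of Nfil3 holds the ROR and REV-ERB core, as that of Arntl does.

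Npas2, a paralog of Clock that also pairs with BMAL1, took the Arntl pattern: 52.4, 2.80 and 27.7 CPM in normal WT, 2.82 to 5.53 CPM in normal KO, 43.5 to 49.3 CPM in ischemic WT and 10.1 to 30.1 CPM in ischemic KO mice. Hlf and Tef, the factors of the same PAR bZIP family as Dbp, took the Dbp pattern. Hlf had 17.3, 87.9 and 11.5 CPM in normal WT mice and 53.8 to 136 CPM in normal KO mice, but at most 16.2 CPM in ischemic WT and 27.7 CPM in ischemic KO mice. Tef had 130, 326 and 98.7 CPM in normal WT, 285 to 420 CPM in normal KO, 79.5 to 113 CPM in ischemic WT and 74.1 to 202 CPM in ischemic KO mice. For both, WT mouse 2 was the highest of its group. Bhlhe41 (DEC2), an E-box repressor, had 13.0, 36.4 and 15.7 CPM in normal WT and 23.2 to 68.7 CPM in normal KO mice, and 6.94 to 24.3 CPM after ischemia. Wee1, a cell cycle kinase under clock control, had 11.5 to 20.7 CPM in normal WT and 23.0 to 50.1 CPM in normal KO mice. Of these 5, none was called by edgeR, and the smallest adjusted p was 0.0503, for Hlf over both genotypes (−1.81, SE 0.40).

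**Figure D5:**
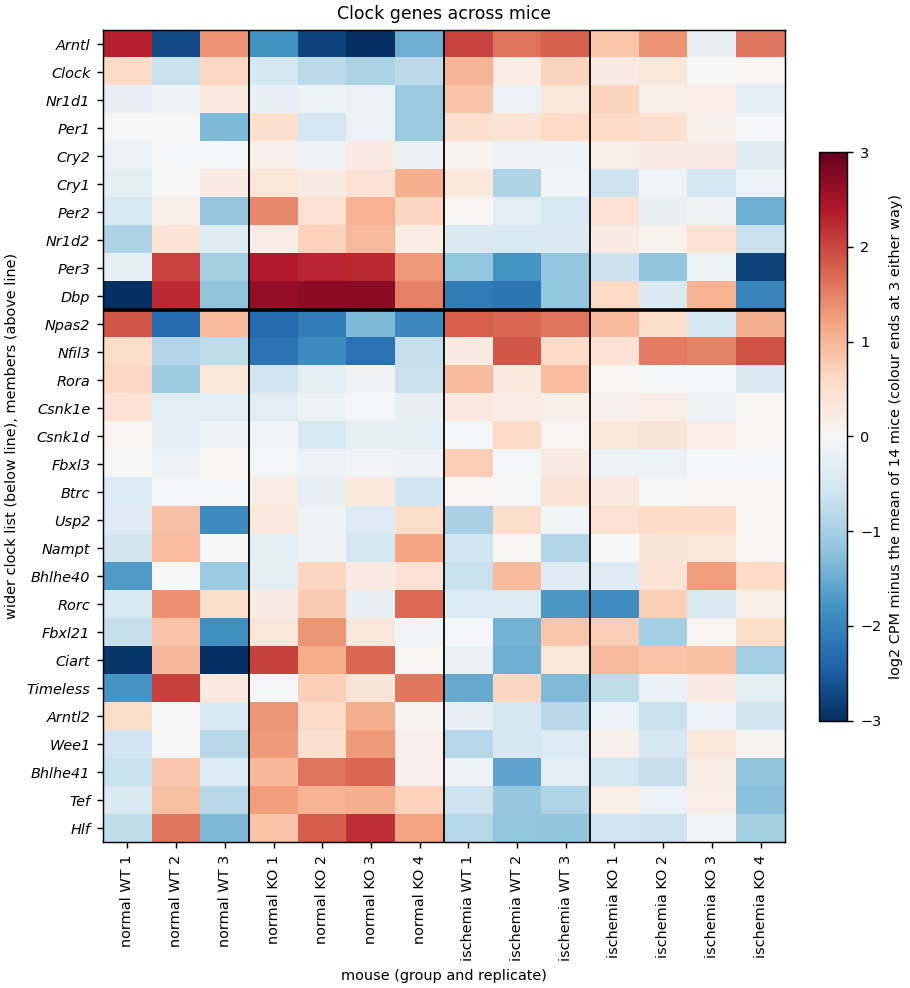
Log2 CPM of the 10 clock genes (above the line) and 19 genes of the wider list (below) in the 14 mice, each minus its mean over all mice; rows are ordered by their correlation with Arntl and vertical lines part the groups. Arntl, Clock and Npas2 are low (blue) and Dbp, Per3, Hlf and Tef high (red) in the normal KO mice and in normal WT mouse 2.

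Outside both lists, the genes whose group-centered log2 CPM was most like that of Arntl over the 14 mice, among 13703 genes, were Med16 (Pearson r = 0.941), Bbc3 (0.922) and Ctu2 (0.916). Those most like Dbp were Rfc1 (0.939), Zfp518a (0.918) and Mthfd1l (0.916). They were picked as the highest of many. In normal WT mice Med16 ran from 25.4 to 55.5 CPM, where Arntl ran from 1.77 to 60.6, and Mthfd1l from 0.767 to 6.39 CPM, with up to 16.5 CPM in normal KO mice.

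Genes that answer to stress hormones, acute signals or low oxygen were counted for comparison with Per1 and Nfil3. Of 9 immediate-early genes, 5 had an unadjusted p under 0.05 after ischemia in KO mice, all higher (background 13.2%), and 2 in WT mice, both higher (9.57%). In KO mice edgeR called 2 (background 0.294%), Atf3 (2.21, SE 0.32, adjusted p = 0.0132) and Nr4a1 (2.44, SE 0.36, adjusted p = 0.0191), named here after their values were seen. Mean Nr4a1 was 86.2 CPM in normal and 466.5 CPM in ischemic KO mice, but 425.2 and 412.5 CPM in normal and ischemic WT mice. The normal KO mice were thus the low group for Nr4a1. Mean Atf3 was 17.1 and 79.1 CPM in KO mice and 29.3 and 32.1 CPM in WT mice. Over both genotypes edgeR called 3, Atf3, Ier2 and Junb (background 0.927%). Of 11 glucocorticoid-responsive genes tested, 7 were higher and 1 lower at an unadjusted p under 0.05 in KO mice and 5 were higher in WT mice, against the same backgrounds. The lower one was Tsc22d3, with 133 to 174 CPM in normal and 80.8 to 92.0 CPM in ischemic KO mice, named after its values were seen. edgeR called 1, Klf15, over both genotypes (0.80, SE 0.17, adjusted p = 0.049), likewise named after its value was seen. Of 10 hypoxia-response genes, 1 was higher at that limit in KO mice and 0 in WT mice, and edgeR called none. Median log2 differences in KO mice were 0.81, 1.31 and −0.03 for the immediate-early, glucocorticoid and hypoxia lists, against −0.05 for all genes. In WT mice they were 0.13, 0.13 and −0.37, against −0.0072 for all genes.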

How the data were processed

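RNA of the superior mesenteric artery of 14 mice was measured in 4 groups, taken from the sample labels. The authors deposited raw read counts per gene symbol in 1 table, without normalization; per the labels the reads were aligned with HISAT2 2.0.4 to mm10. Neither the counter nor its annotation or strand setting is given in the sources used here. The study's methods speak of microarrays and a random variance F-test on log2 ratios, but the values are whole-number counts, so a count model was used. Columns of single samples left unused numbered 0.

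Genes were kept by filterByExpr, libraries scaled by TMM, and all 14 mice fitted together by edgeR 4.0.16 (quasi-likelihood test) in R 4.3.3, with Benjamini-Hochberg adjustment over 17693 genes. A call needed an adjusted p under 0.05 and a fold change over 1.5. SE is the log2 fold change divided by the square root of the F statistic. CPM are TMM-scaled, and log2 CPM used a prior count of 2. Percentages called background give the share of all tested genes under the same rule. Differences of single values were tested by exact two-sided permutation with Python 3.11.15 and scipy 1.17.1. The steps were tested on simulated data.

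Alternatives were DESeq2 1.42.0, limma-trend (limma 3.58.1), other scalings (DESeq2 size factors, upper quartile) and filters (at least 10 counts in every mouse, none), no limit on the fold change, only the groups compared, the replicate number as a block, brown adipocyte markers as covariate, and each mouse left out. The members and gene lists were chosen with earlier results of these data known. All 10 members are named, with the 6 genes of the wider list with the smallest p in the test of 4 groups, and the 3 genes most like Arntl and most like Dbp (mean CPM over 1). Comparisons share control mice. Nothing says how the mice were housed or when they were sampled; p-values measure the spread between these mice. Counting noise was far below it: pairs of replicates differed by at least 64.5 times the chi-square that sampling alone gives. Coordinates and exon lengths come from GENCODE on GRCm38, promoter windows from RefSeq on GRCm38.p6. The marker lists of endothelium, fibroblasts, white adipocytes, lymph node, neutrophils, macrophages, acinar pancreas and gut epithelium were read as well; their highest sums over the 14 mice were 1565, 6283, 3802, 8.95, 14.1, 184, 3.50 and 32.8 CPM.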

Additional observations from a re-analysis of the deposited data

Results flagged for a closer look

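Among 20 sets of 4 mice (10 genes in 2 KO groups), 3 had a mouse that stood apart from its group by Dixon's criterion at the 95% level, applied to CPM. Chance gives about 1 in 20 for independent sets of normally distributed values. These sets share the same mice, so the count does not measure an excess over chance. Dbp was at 117.7 CPM in normal KO mouse 4, against 257 to 271 CPM in the other 3. Nr1d1 was at 117.7 CPM in the same mouse, against 215 to 232 CPM. Cry2 was at 39.6 CPM in ischemic KO mouse 4, against 57.7 to 60.7 CPM in the other 3. Normal KO mouse 4 also had the highest sum of brown adipocyte markers (6044 CPM) and the lowest of smooth muscle markers (10270 CPM) of its group; their part in the low values was not tested.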

How the results depend on the processing

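The call of Per3 over both genotypes held under the 9 other settings run, apart from single mice left out. DESeq2 called 4 members in KO mice after ischemia (background 3.77%) and 4 over both genotypes (5.39%). It called 1 between genotypes under normal conditions (0.321%) and 5 in the test of 4 groups (5.78%). In KO mice after ischemia 1 member was called without a filter (background 0.263% of all genes), 3 with only the groups compared (1.67%), 1 by limma-trend (0.401%) and 3 with brown adipocyte markers as covariate (1.64%). Without a filter 1 was called in the test of 4 groups (0.224%). The cause was not tested. Leaving out single mice, members called numbered 0 to 2 over both genotypes and 0 to 3 in KO mice. They numbered 0 to 2 between genotypes under normal conditions and 0 to 4 in the test of 4 groups. The highest of each came without normal WT mouse 2, except over both genotypes (Per3 and Dbp, without normal WT mouse 1). In those fits 174 of 18554 genes were called in KO mice, 29 between genotypes and 208 in the test of 4 groups. Over both genotypes, 361 of 18512 genes were called. No scaling moved the median of all genes by over 0.1 (log2).

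Replicate numbers of different groups mark different mice. Same-numbered mice had correlations of their deviations from group means from −0.28 to 0.468 over 19 pairs (median 0.181, 12 over 0.1), against −0.573 to 0.467 over 54 pairs with different numbers (median −0.0617, 11 over 0.1). Each mouse was also set against every other group that held its number, which gave 38 cases. The own number gave the highest correlation in 22 of them, and in every other group for 5 of 14 mice. Not every pair was over 0.1 and the labels name no shared batch, so the numbers were not taken to pair the mice in the main fit. By the medians, same-numbered mice were still more alike than the others. The correlations between clock genes were not rerun with the number removed. Whether same-numbered mice shared a session or time of sampling cannot be told from the labels. With the number as a replicate block, edgeR called the same count of members in each comparison, 1 over both genotypes (Per3, adjusted p = 0.0376), and turned the sign of 2 differences, Nr1d1 between genotypes after ischemia (0.016) and the interaction of Dbp (−0.43). limma-trend turned Per2 between genotypes after ischemia (−0.077) and the interaction of Dbp (−1.89). The covariate turned Arntl (0.039), Per1 (0.044) and Nr1d1 (0.075) between genotypes after ischemia and the interaction of Dbp (−1.53). None of these was called.

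Leaving out single mice turned the sign of further differences that were not called. In WT mice after ischemia the ranges were −0.13 to 1.37 for Arntl, −0.44 to 0.12 for Cry1, −0.024 to 0.081 for Cry2, −3.11 to 0.31 for Dbp, −0.53 to 0.15 for Nr1d2 and −0.13 to 0.51 for Per2. For Cry2 in KO mice it was −0.0014 to 0.19. Between genotypes the ranges were −0.23 to 0.31 for Per1 under normal conditions and, after ischemia, −0.43 to 0.11 for Cry1, −0.36 to 0.11 for Nr1d1 and −0.23 to 0.31 for Per2. The interaction ranged from −0.042 to 0.15 for Cry2, −2.56 to 0.86 for Dbp, −0.015 to 0.46 for Nr1d1, −0.61 to 0.073 for Nr1d2 and −0.52 to 0.064 for Per1.

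Without the 2 mice farthest from the median, r was −0.583 for Arntl and Per3, 0.421 for Arntl and Clock and 0.958 for Dbp and Per3. With group means left in, r was 0.429 for Arntl and Nr1d1, −0.907 for Arntl and Per3, 0.93 for Arntl and Clock, −0.138 for Nr1d1 and Nr1d2 and 0.143 for Per1 and Per2. Without single mice r ranged from −0.909 to −0.658 for Arntl and Dbp, −0.832 to −0.483 for Arntl and Per3, 0.388 to 0.867 for Arntl and Clock, 0.574 to 0.977 for Dbp and Per3, 0.615 to 0.766 for Per1 and Per2, −0.43 to 0.00013 for Arntl and Nr1d1, 0.246 to 0.606 for Nr1d1 and Nr1d2 and −0.245 to 0.145 for Cry1 and Cry2. The lowest Arntl and Per3 values rest on 34 and 24 counts. The spread between 3 or 4 mice limits the folds, with the largest SE of the 10 members for Dbp in each comparison.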
